A study of Mus musculus with 12 samples.

Results

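The collagen genes were examined across 12 mouse prostates as all rows of the expression tables whose symbol has the form of a collagen chain gene (Col, a type number, the letter a and a chain number). This rule, which left out 1 gene, found 43 members among the 41042 genes listed, and 35 of them passed the filter on low values described below. The values measured were fragments per kilobase of exon and library size (FPKM), a level per length, from whole prostate RNA of C57BL/6 mice aged 15 months. The 4 genotypes had 3 mice each: WT littermates, Pb-ERG mice carrying a truncated ERG transgene, Trp53pc-/- mice with floxed Trp53 alleles deleted by Cre, and Pb-ERG, Trp53pc-/- mice with both changes, called double mutants here. The probasin (Pb) promoter drives both the transgene and the Cre4 recombinase in prostate epithelium, so stromal cells, which are the main source of most collagens in tissue, were not the cells engineered. The whole gland was ground, so a value mixes epithelium, fibroblasts, smooth muscle, vessels and immune cells, and fewer cells of a type cannot be told apart from less RNA per cell.

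Collagens are trimers of chains that wind into a triple helix and are secreted into the extracellular matrix. Fibrillar collagens form the load-bearing fibrils of the stroma, type IV collagen forms the network of the basement membrane under epithelium and around vessels and muscle, and the beaded-filament, fibril-associated (FACIT), multiplexin and short-chain types link, coat or organise these scaffolds. In tumours, fibroblasts are known to lay down more fibrillar collagen, and an epithelium that grows into the stroma crosses its basement membrane.

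Of the 43 members, 34 had a promoter in the RefSeq sequences of GRCm38.p6. ERG belongs to the ETS factors, whose binding core is GGAA, and this core was searched on both strands of the 250 bases before each start site, together with the longer CCGGAAGT, which contains it. GGAA stood in all 34 of these promoters with a median of 3 matches, but it also stood in 93.4% of the 32851 promoters of the same length. There too the median was 3. CCGGAAGT stood in 0 of the 34 and in 2.88% of all. The sequences of 3 members are shown because the results turn on them: Col3a1 (chr1:45311288-45311537, plus strand) and Col8a1 (chr16:57754738-57754987, minus strand) rose with the transgene, and Col4a6 (chrX:141474077-141474326, minus strand) did not. Each is written 5′ to 3′ on the strand of the gene, with GGAA or its reverse complement TTCC in capitals.
Col3a1: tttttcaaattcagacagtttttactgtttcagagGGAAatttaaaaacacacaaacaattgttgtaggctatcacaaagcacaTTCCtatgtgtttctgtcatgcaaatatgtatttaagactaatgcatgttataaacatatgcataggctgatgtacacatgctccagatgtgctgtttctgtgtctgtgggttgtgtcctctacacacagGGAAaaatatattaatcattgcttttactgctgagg
Col8a1: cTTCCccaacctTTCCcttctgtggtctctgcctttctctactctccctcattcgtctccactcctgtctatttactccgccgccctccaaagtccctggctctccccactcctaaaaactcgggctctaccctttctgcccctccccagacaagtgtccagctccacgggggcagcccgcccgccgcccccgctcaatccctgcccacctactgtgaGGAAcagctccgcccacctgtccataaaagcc
Col4a6: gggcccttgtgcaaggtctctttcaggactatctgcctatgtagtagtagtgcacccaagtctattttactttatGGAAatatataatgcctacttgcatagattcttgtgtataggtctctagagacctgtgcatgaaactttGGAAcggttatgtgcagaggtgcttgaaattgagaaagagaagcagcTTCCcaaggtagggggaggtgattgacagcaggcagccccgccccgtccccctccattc
All 3 held 3 matches, and their GC content was 35.2%, 60.8% and 47.6%. A match of 4 bases is a description of the letters and not a binding site.

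The libraries held 19747635 to 32565774 mapped fragments (median 23786832), and the collagen genes took between 0.0618% and 0.564% of them. Erg stood at 8.26 to 27.1 FPKM in the 6 libraries with the transgene and at 0.268 to 0.925 in the 6 without, whereas Trp53, deleted in epithelium only, ranged over 5.32 to 21.5 in mice with the deletion and 8.87 to 22.3 in the others, so its level in the whole gland did not separate the genotypes and is no check of the deletion. The double mutant replicate 3 stood apart from the other 11 libraries in its tissue markers. Pbsn, the secretory protein of the luminal epithelium, was at 53.3 FPKM there against 5504 to 20035 elsewhere, and Myh11, the smooth muscle myosin, was at 0.679 against 46.9 to 215. Its skeletal muscle markers summed to 678 FPKM against 23.3 to 195, and its cycling-cell markers to 124 against at most 23.5 in the others. Results that rest on this library are therefore given with and without it. The 12 libraries were fitted together with limma on log2(FPKM + 1), a scale that understates the change of low genes, and a gene was called at a Benjamini-Hochberg adjusted p below 0.05 over the 17623 genes tested. On this scale the median gene was itself 0.35 higher in the double mutant than in WT and 0.26 higher in the transgene average, against 0.015 and 0.0043 after median-of-ratios scaling.

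Most collagen genes were higher in the prostates carrying the ERG transgene. The largest fold changes in the double mutant against WT belonged to the 3 genes of types I and III and Col5a2 of type V. This order holds on the log2(FPKM + 1) scale, which understates the change of low genes such as Col11a1 and Col10a1. In the double mutant against WT, 19 of the 35 tested members were called higher and 0 lower (limma, Benjamini-Hochberg), where 22.0% of all tested genes were called higher and 1.40% lower. Of these 19, Col10a1 passed the filter only through libraries with the transgene, in which it was high. So did Col11a2, which was not called, and both count in the 35 and in the medians below. With at least 10 fragments in every library, which leaves out both, 17 of 30 members were called higher beside 26.4% of all genes. The median log2 fold change of the 35 was 1.0 and that of all tested genes 0.35, and 33 of the 35 were above 0, as were 14046 of the 17623 genes. The transgene average, which takes the mean of Pb-ERG against WT and double mutant against Trp53pc-/-, called 21 of 35 higher and 0 lower, with a background of 29.3% higher and 2.11% lower and a median of 0.77 against 0.26 over all genes. The 2 comparisons share 6 libraries, so their calls are not independent and stand side by side below. Over all genes the split of calls depended on the scaling: 3880 higher and 247 lower in the double mutant became 1424 and 1076 after median-of-ratios scaling, and 5169 and 371 in the transgene average became 2206 and 1781. With that scaling 13 of the 35 members (8.08% of all genes) were called higher in the double mutant and 16 (12.5%) in the transgene average. Without double mutant replicate 3 the counts were 14 of 34 (15.1%) and 24 of 34 (29.2%). The count in the double mutant also fell to 8, 10 and 8 when WT replicate 1, 2 or 3 was left out, with 9.39%, 8.98% and 6.36% of all genes called higher, and 7 members were called with each of the 12 libraries left out in turn: Col8a1, Col1a2, Col16a1, Col1a1, Col6a1, Col5a2 and Col11a1. Without double mutant replicate 1 the count was 12, with 12.6% of all genes called higher.

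Of the other 12 members called in the double mutant against WT, Col3a1 and Col5a1 lost the call without WT replicate 1 or 3, Col15a1 without WT replicate 2 or 3, Col4a1 without WT replicate 1 and Col4a2 without any 1 of the 3. Col6a2 and Col10a1 lost it without any 1 WT library or double mutant replicate 1, and Col4a3, Col4a5 and Col12a1 also without double mutant replicate 3 (Col4a5 also without Trp53pc-/- replicate 2). Col18a1 lost it in 9 and Col5a3 in 10 of the 12 omissions. All of these fold changes stayed above 0, the lowest being 0.48 for Col18a1. In the transgene average 17 of the 21 kept their call under each omission, all but Col14a1, Col4a3, Col5a3 and Col6a5.

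The transgene alone and the deletion alone called no collagen gene. In Pb-ERG against WT 0 of 35 members passed limma's adjusted threshold, where 2.0% of all genes were called higher and 0.176% lower. At an unadjusted p below 0.05, limma had 11 members higher and 0 lower, beside 3712 and 400 of the 17623 genes. Above 0 were 29 of 35 members and 75.6% of all genes, with medians of 0.73 and 0.22. limma voom on the recovered fragments also called 0, with 11 higher at the unadjusted level beside 3307 of the 17623 genes. That outcome rested on Pb-ERG replicate 1, which held the lowest Pb-ERG value for 30 of the 35 members: without it 11 members were called higher, and 17.8% of all genes. In Trp53pc-/- against WT 0 were called (0% of all genes). At the unadjusted level 0 were higher and 1 lower by limma and by voom, beside 579 and 329 of the 17623 genes by limma. In limma 12 of 35 members and 55.5% of all genes were above 0, with medians of -0.14 and 0.028. In the double mutant against Pb-ERG 0 members were called by limma, with 0.0170% of all genes called in either direction. At the unadjusted level 8 were higher and 1 lower, beside 1843 and 433 of the 17623 genes. Here voom called 0, with 8 higher and 0 lower, beside 1937 and 403 of the 17623 genes. Leaving out double mutant replicate 2 gave 3 calls, Col8a1, Col10a1 and Col11a1, beside 0.742% of all genes. The non-additive effect, which asks whether the transgene's effect differed with the Trp53 genotype, called 0 (0% of all genes). At the unadjusted level 3 were higher and 0 lower by both tools, beside 854 and 279 of the 17623 genes by limma. No member passed the study's own threshold of 0.001 in any comparison, by limma. The study set that threshold for DESeq2 on counts. In limma few of the 17623 genes passed it. It called 36 higher in the double mutant against WT, 186 higher and 3 lower in the transgene average, and 2 higher in Pb-ERG against WT.

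**Figure D1:**
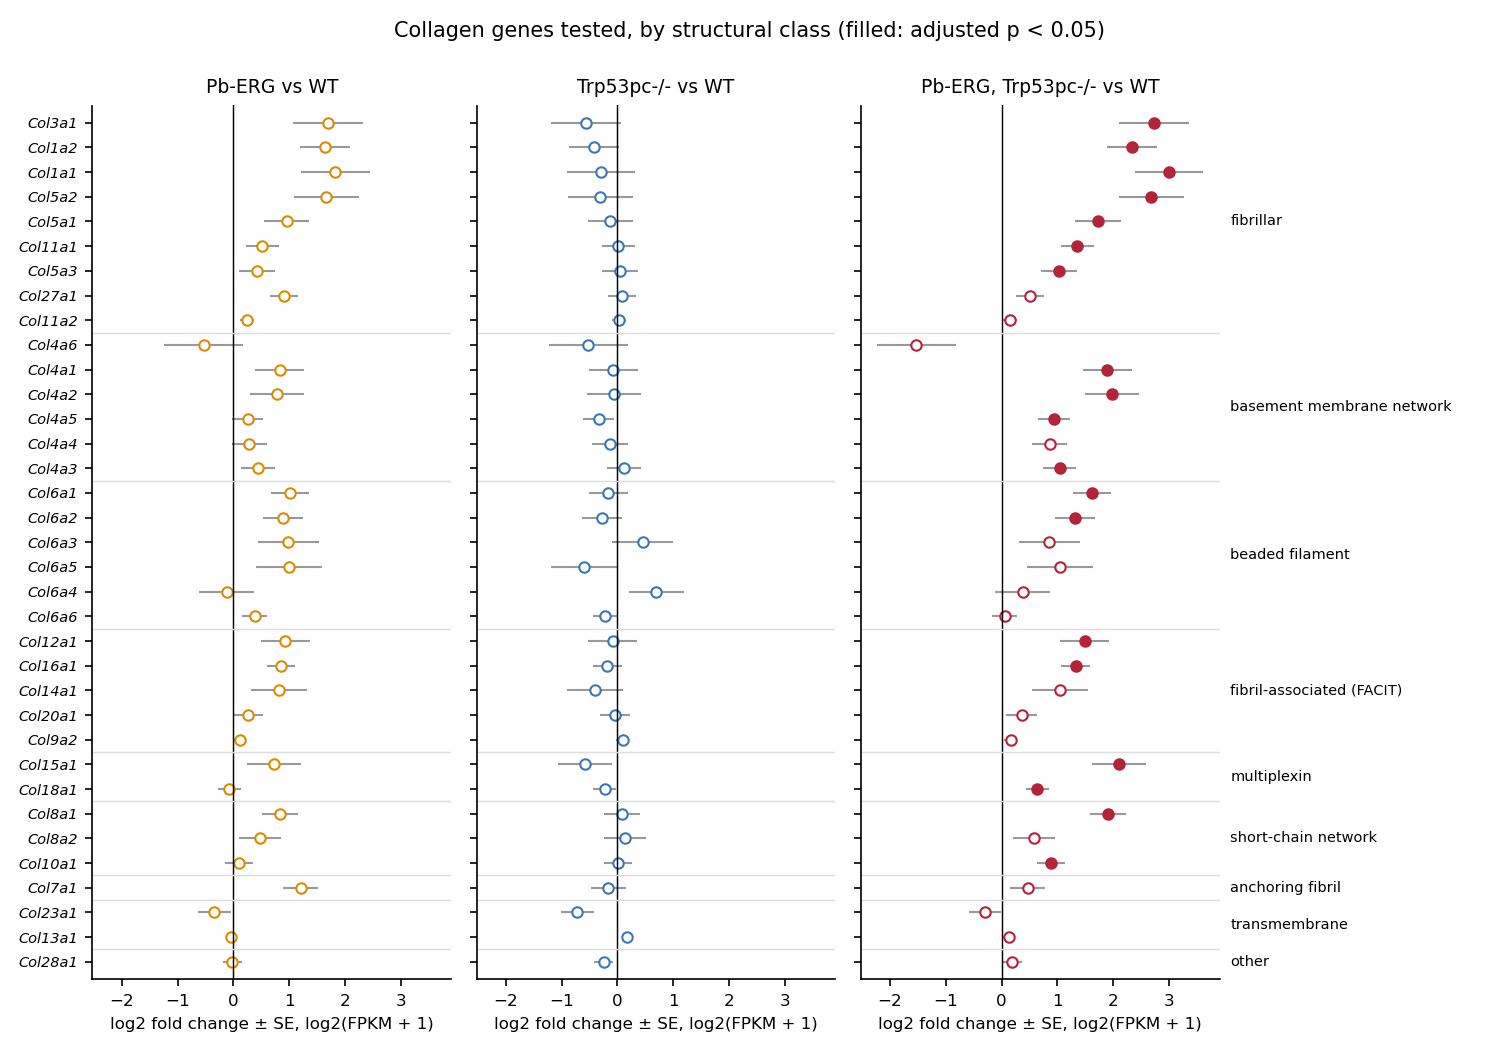
Log2 fold changes on the log2(FPKM + 1) scale with their standard errors for the 35 tested collagen genes in 3 comparisons, ordered by structural class, with filled points for genes called at an adjusted p below 0.05. In the double mutant against WT 19 points are filled and all of them lie to the right of 0, while Col4a6 lies at -1.53 and is not filled.

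Types I and III, the fibrillar collagens that make up most stromal fibrils, had the highest group means of all members in Pb-ERG and in the double mutant. Single libraries did not all keep this order. In Pb-ERG replicate 1 Col4a6 (33.3 FPKM) exceeded Col1a2 and Col1a1, and Col4a1 (13.9) and Col6a1 (12.2) exceeded Col1a1. In double mutant replicate 2 Col6a1 (21.3) and Col4a1 (20.2) exceeded Col1a1. Col3a1 (chr1:45311538-45349706, plus strand), the chain of type III collagen, stood at 19.0, 24.9 and 24.7 FPKM in WT, 35.6, 141 and 86.7 in Pb-ERG, 17.7, 11.4 and 16.7 in Trp53pc-/- and 218, 51.9 and 332 in the double mutant. All 6 transgenic libraries lay above the 6 without the transgene, with the Pb-ERG replicate 1 and the double mutant replicate 2 lowest among the 6. The log2 fold change was 2.73 (SE 0.63, limma adjusted p = 0.0155, Benjamini-Hochberg) in the double mutant against WT, 2.18 without replicate 3, and 2.5 (SE 0.44, adjusted p = 0.00372) in the transgene average. Col1a1 (chr11:94936224-94953042, plus strand), which encodes the more frequent chain of type I collagen, read 4.62, 4.74 and 6.38 in WT, 9.98, 39.4 and 23.1 in Pb-ERG, 4.05, 3.47 and 4.69 in Trp53pc-/- and 59.5, 16.2 and 116 in the double mutant. It showed the same separation of the 6 and 6 libraries, and its mean went from 5.25 ± 0.989 FPKM in WT (SD, n = 3) to 63.9 ± 50.1 in the double mutant. Its log2 fold change, 3.0 (SE 0.62, limma adjusted p = 0.0108), was the highest of all members on the log2(FPKM + 1) scale and was 2.38 without replicate 3. Col1a2 (chr6:4505493-4541543, plus strand), the partner chain, measured 12.5, 15.6 and 18.1 in WT, 25.5, 83.8 and 56.6 in Pb-ERG, 10.8, 9.33 and 13.6 in Trp53pc-/- and 137, 43 and 91.1 in the double mutant. Again no transgenic library overlapped the rest, and its fold change of 2.34 (SE 0.45, limma adjusted p = 0.00858) was 2.26 without replicate 3, in which it was lower than in replicate 1 while Col1a1 and Col3a1 were higher. In the transgene average Col1a2 had the smallest p of all members, with a log2 fold change of 2.20 (SE 0.32, limma adjusted p = 0.00165), and Col1a1 reached 2.56 (SE 0.44, adjusted p = 0.00318). In Pb-ERG against WT their log2 differences were 1.64 (SE 0.45, limma adjusted p = 0.0828) for Col1a2, 1.83 (SE 0.62, adjusted p = 0.125) for Col1a1 and 1.70 (SE 0.63, adjusted p = 0.147) for Col3a1, all short of the threshold.

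The minor fibrillar chains, which join the fibrils of types I and II and limit their width, followed at lower levels. Of the 9 fibrillar members tested, 7 were called higher in the double mutant against WT and 8 in the transgene average, with class medians of 1.73 and 1.40. Of all genes, 22.0% and 29.3% were called higher in these comparisons. Col5a2, which lies tail to tail with Col3a1 at a distance of 24614 bases, ranged over 1.59 to 2.98 FPKM without the transgene and 4.90 to 48.4 with it, and its log2 fold change was 2.69 (SE 0.58, limma adjusted p = 0.0129), or 2.13 without double mutant replicate 3. Col5a1 ranged over 0.911 to 1.44 and 1.99 to 12.4. Col11a1 (chr3:114030540-114220718, plus strand), a chain better known from cartilage, read 0.135, 0.0127 and 0.0972 in WT, 0.132, 0.834 and 0.792 in Pb-ERG, 0.0163, 0.0528 and 0.219 in Trp53pc-/- and 2.06, 0.650 and 3.16 in the double mutant. The double mutants were above every other group except that Pb-ERG replicates 2 and 3 exceeded double mutant replicate 2, and the double mutant against WT gave 1.35 (limma adjusted p = 0.0131). Col27a1 (chr4:63215435-63334991, plus strand), a fibrillar chain of cartilage, had another order: 0.141, 0.191 and 0.0734 in WT, 0.319, 1.19 and 2.29 in Pb-ERG, 0.202, 0.273 and 0.110 in Trp53pc-/- and 0.648, 0.635 and 0.564 in the double mutant. Pb-ERG replicates 2 and 3 were its highest libraries, and it was called in the transgene average (0.67, limma adjusted p = 0.0187) and not in the double mutant against WT. Col5a3, at 0.091 to 0.313 FPKM without the transgene and 0.266 to 3.27 with it, was called in both comparisons but lost both calls after median-of-ratios scaling. Col11a2 stayed between 0.0118 and 0.414 FPKM and was not called. It passed the filter only through Pb-ERG replicates 2 and 3 and double mutant replicate 3, so its fitted differences are a description.

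**Figure D2:**
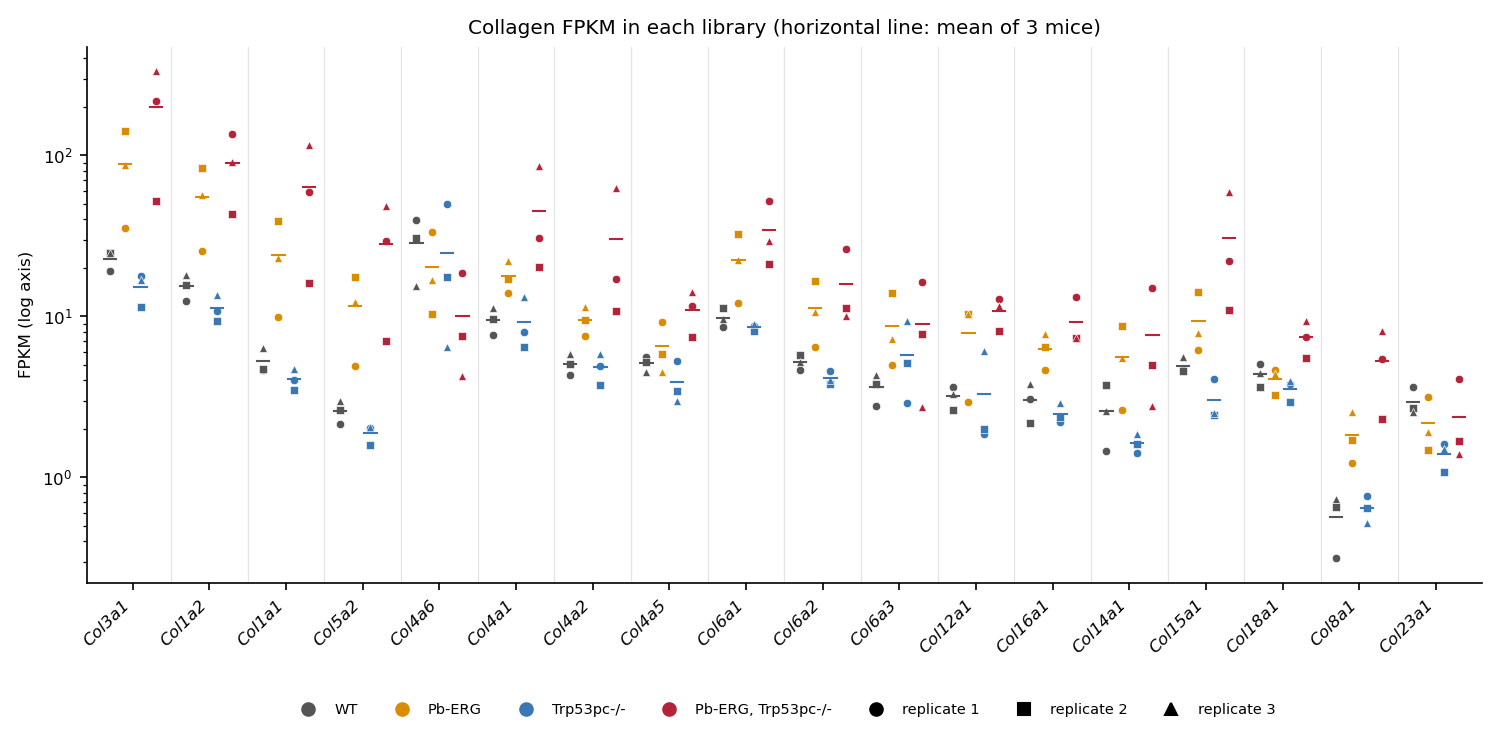
FPKM on a log axis of the more abundant collagen genes and of Col8a1, with 1 point per library, replicates 1 to 3 as circle, square and triangle, genotypes by colour, and a horizontal line at the mean of 3 mice. Col3a1, Col1a2 and Col1a1 separate the 6 libraries with the transgene from the 6 without, and Col4a6 overlaps over all 4 genotypes.

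Basement membrane collagen IV had a split pattern. Col4a1 and Col4a2, whose chains form the network found in nearly all basement membranes, rose, whereas Col4a6, the chain found under certain epithelia and around smooth muscle, was highest in glands without the transgene and lowest in the double mutants. Col4a6 (chrX:141165403-141474076, minus strand) stood at 39.8, 30.5 and 15.4 FPKM in WT, 33.3, 10.4 and 16.9 in Pb-ERG, 49.5, 17.7 and 6.49 in Trp53pc-/- and 18.6, 7.54 and 4.27 in the double mutant. The groups overlapped, and the replicates of WT and Trp53pc-/- spread widely (24.6 ± 22.3 FPKM in Trp53pc-/-, SD, n = 3). It was the collagen gene of highest mean level in WT and Trp53pc-/- and ranked 5 in Pb-ERG and 13 in the double mutant. Its log2 difference of -1.53 (SE 0.71, limma adjusted p = 0.131) between double mutant and WT did not pass the test, nor did -0.77 (SE 0.50, adjusted p = 0.254) in the transgene average, and without double mutant replicate 3 the first of these was -1.10. Col4a1 (chr8:11198423-11312826, minus strand) read 7.65, 9.62 and 11.2 in WT, 13.9, 17.1 and 22.2 in Pb-ERG, 7.99, 6.47 and 13.3 in Trp53pc-/- and 30.5, 20.2 and 85.6 in the double mutant. Col4a2 (chr8:11312805-11449287, plus strand), which starts head to head with Col4a1 and overlaps it by 22 bases, read 4.31, 5.06 and 5.82, then 7.50, 9.48 and 11.4, then 4.94, 3.73 and 5.82, and 17.1, 10.8 and 62.7 in the same order of groups. For both genes every transgenic library exceeded every other library, and double mutant replicate 3 was the highest. Against WT, the double mutant gave 1.90 (SE 0.44, limma adjusted p = 0.0163) for Col4a1 and 1.99 (SE 0.48, adjusted p = 0.0189) for Col4a2, and both were lower without that library, at 1.31 and 1.28.

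Col4a5 (chrX:141475385-141689234, plus strand), the usual partner of Col4a6 and its head-to-head neighbour at 1308 bases, moved otherwise. Its FPKM values were 5.57, 5.23 and 4.51 in WT, 9.20, 5.87 and 4.51 in Pb-ERG, 5.29, 3.45 and 2.99 in Trp53pc-/- and 11.5, 7.43 and 14.1 in the double mutant. The double mutants lay above all WT libraries, with a log2 fold change of 0.94 (limma adjusted p = 0.0362) that was not called after median-of-ratios scaling or without double mutant replicate 3. Col4a5 was also called in the transgene average, and that call was lost after the same scaling. The ratio of Col4a6 to Col4a5 in the same library, looked at after the values were seen and given with no test, was 7.14, 5.84 and 3.42 in WT, 3.62, 1.77 and 3.75 in Pb-ERG, 9.36, 5.13 and 2.17 in Trp53pc-/- and 1.61, 1.01 and 0.303 in the double mutant. The double mutants had the 3 lowest ratios. Col4a3 and Col4a4, the pair that with Col4a5 forms the network of the kidney filter, start 126 bases apart on opposite strands and were low, at 0.196 to 1.08 and 0.376 to 1.40 FPKM outside the double mutant and 0.905 to 3.48 and 1.12 to 4.83 within it. Col4a3 was called in both main comparisons and Col4a4 in neither. The call of Col4a3 in the double mutant against WT was lost without double mutant replicate 3, and both of its calls were lost after median-of-ratios scaling. Over the 6 members 4 were called higher in the double mutant against WT and 4 in the transgene average, with class medians of 0.99 and 0.72. The shares of all genes called higher were 22.0% and 29.3%.

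Type VI collagen, the beaded filaments between fibrils and basement membranes, was called higher in both main comparisons for Col6a1 and Col6a2. Col6a1 (chr10:76708792-76726168, minus strand) stood at 8.55, 11.3 and 9.57 FPKM in WT, 12.2, 32.5 and 22.3 in Pb-ERG, 8.65, 8.14 and 8.96 in Trp53pc-/- and 51.8, 21.3 and 29.5 in the double mutant. All 6 transgenic libraries lay above the others, and the fold change in the double mutant against WT was 1.62 (SE 0.35, limma adjusted p = 0.0128), or 1.67 without replicate 3. Col6a2 (chr10:76595762-76623630, minus strand), 85161 bases away on the same strand, read 4.64, 5.71 and 5.23 in WT, 6.42, 16.6 and 10.6 in Pb-ERG, 4.55, 3.79 and 4.04 in Trp53pc-/- and 26.3, 11.3 and 10 in the double mutant. It was called in both comparisons (1.32, limma adjusted p = 0.0270 in the double mutant against WT, lost after median-of-ratios scaling). Col6a3 (chr1:90765923-90843971, minus strand), the large remaining chain of the common trimer, did not pass the test with all libraries. Its values were 2.77, 3.82 and 4.3 in WT, 5.02, 14 and 7.27 in Pb-ERG, 2.89, 5.12 and 9.37 in Trp53pc-/- and 16.4, 7.81 and 2.74 in the double mutant, where replicate 3 was the lowest of all 12 libraries. Without that library the double mutant mean was 3.33 times that of WT, beside 3.73 for Col6a1 and 3.61 for Col6a2. Col6a3 was then called higher in the transgene average but not in the double mutant against WT. Col6a5 ranged over 1.34 to 4.77 FPKM without the transgene and 3.23 to 21.1 with it and was called in the transgene average alone. That call was lost after median-of-ratios scaling and in 9 of the 12 omissions of 1 library. Col6a4 (chr9:105990461-106096783, minus strand) varied widely between mice of 1 genotype: 0.466, 0.0329 and 0.716 in WT, 0.0249, 0.321 and 0.493 in Pb-ERG, 1.29, 2.66 and 0.317 in Trp53pc-/- and 0.397, 0.0134 and 3.02 in the double mutant. No group was apart from another for it, and Col6a6, at 0.110 to 1.41 FPKM, was not called either. In all, 2 of the 6 beaded-filament members were called higher in the double mutant against WT and 3 in the transgene average. Beside them, 22.0% and 29.3% of all genes were called higher.

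Among the FACIT collagens, which sit on the surface of fibrils, Col12a1, Col14a1 and Col16a1 were the abundant ones. Col16a1 (chr4:130047840-130099277, plus strand) read 3.08, 2.16 and 3.79 FPKM in WT, 4.64, 6.48 and 7.72 in Pb-ERG, 2.22, 2.37 and 2.88 in Trp53pc-/- and 13.1, 7.29 and 7.31 in the double mutant. The 6 and 6 libraries did not overlap, and it had small standard errors for its size: 1.32 (SE 0.26, limma adjusted p = 0.00881) in the double mutant against WT and 1.18 (SE 0.18, adjusted p = 0.00214) in the transgene average. Col12a1 (chr9:79598991-79718720, minus strand) read 3.64, 2.64 and 3.30 in WT, 2.92, 10.3 and 10.4 in Pb-ERG, 1.85, 2.0 and 6.06 in Trp53pc-/- and 12.9, 8.17 and 11.6 in the double mutant, with Pb-ERG replicate 1 at the level of WT. It was called in both comparisons, the double mutant against WT at 1.49 (limma adjusted p = 0.0359), which was lost without replicate 3 and after median-of-ratios scaling. Col14a1 (chr15:55307750-55520803, plus strand) stood at 1.45, 3.74 and 2.59 in WT, 2.61, 8.74 and 5.54 in Pb-ERG, 1.42, 1.61 and 1.85 in Trp53pc-/- and 15.1, 4.98 and 2.78 in the double mutant. It was called in the transgene average (1.13, limma adjusted p = 0.0348), not after median-of-ratios scaling, and gave 1.04 (adjusted p = 0.145) in the double mutant against WT. Col20a1 (0.411 to 2.33 FPKM) and Col9a2 (0.042 to 0.332) were not called. The 5 tested FACIT members thus gave 2 calls in the double mutant against WT and 3 in the transgene average, all higher. Among all genes 22.0% and 29.3% were called higher.

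The multiplexins, collagens of basement membrane zones with a large sugar load, were both called higher in the double mutant (22.0% of all genes). Col15a1 (chr4:47208161-47313167, plus strand) stood at 4.63, 4.6 and 5.57 FPKM in WT, 6.15, 14.1 and 7.83 in Pb-ERG, 4.06, 2.44 and 2.52 in Trp53pc-/- and 22.2, 10.9 and 59.0 in the double mutant. All transgenic libraries exceeded the rest, and the fold change was 2.11 (SE 0.49, limma adjusted p = 0.0156), or 1.49 without replicate 3. Col18a1 (chr10:77052178-77166548, minus strand), the source of endostatin, differed from most members in that Pb-ERG did not exceed WT: 5.03, 3.62 and 4.43 in WT, 4.65, 3.27 and 4.40 in Pb-ERG, 3.78, 2.93 and 3.97 in Trp53pc-/- and 7.48, 5.53 and 9.32 in the double mutant. Its 3 double mutant values were the highest of the 12. It was called at 0.64 (limma adjusted p = 0.0484) against WT, but not after median-of-ratios scaling or without replicate 3. Its difference from Pb-ERG, 0.71 (SE 0.21, limma adjusted p = 0.285), and its non-additive effect, 0.94 (SE 0.29, adjusted p = 0.746), had the smallest p of all members and did not pass. Next came Col15a1 in the non-additive effect (1.96, SE 0.69, limma adjusted p = 0.746). Col18a1 overlaps Slc19a1, and since the strand setting of the counting was not stated, reads of the overlap could not be assigned with certainty.

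The short-chain collagens, which form hexagonal networks in vessel walls and growth cartilage, held the member of smallest p in the double mutant against WT. Col8a1 (chr16:57624258-57754737, minus strand) read 0.315, 0.656 and 0.729 FPKM in WT, 1.23, 1.71 and 2.54 in Pb-ERG, 0.765, 0.644 and 0.519 in Trp53pc-/- and 5.47, 2.32 and 8.16 in the double mutant. The transgenic libraries lay above all others, with a fold change of 1.90 (SE 0.32, limma adjusted p = 0.00573), or 1.57 without replicate 3, and a difference from Pb-ERG of 1.07 (SE 0.32, adjusted p = 0.285). Col8a2 (chr4:126286793-126314330, plus strand), its usual partner, was at 0.884, 0.919 and 1.02 in WT, 0.603, 2.86 and 2.17 in Pb-ERG, 0.768, 0.877 and 1.89 in Trp53pc-/- and 3.66, 1.74 and 0.888 in the double mutant, with overlap between groups and no call. Col10a1 (chr10:34389981-34397085, plus strand), a marker of hypertrophic cartilage, was almost absent outside the double mutant. It had 0, 1 and 1 fragments in WT, 4, 5 and 11 in Pb-ERG, 3, 0 and 0 in Trp53pc-/- and 52, 14 and 188 in the double mutant, or 0.706, 0.221 and 2.08 FPKM in the last group against at most 0.158 elsewhere. It passed the filter through Pb-ERG replicate 3 and the 3 double mutants alone. A member admitted by its high libraries had to differ, so its fitted difference (0.88, limma adjusted p = 0.0314) is given as a description. As a ratio of fragments per mapped fragment, the double mutants exceeded WT 128-fold (95% exact interval 35.2 to 1067), and 55.4-fold (14.8 to 467) without replicate 3, with intervals that cover counting error only. Col10a1 lies within Nt5dc1, so that its count is subject to the same doubt as that of Col18a1.

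Col7a1 (chr9:108953586-108984875, plus strand), the anchoring fibril collagen made by squamous epithelia and fibroblasts, was the member of smallest p in Pb-ERG against WT. Its FPKM values were 0.588, 0.299 and 0.459 in WT, 0.860, 4.87 and 2.38 in Pb-ERG, 0.207, 0.318 and 0.353 in Trp53pc-/- and 0.809, 1.01 and 1.18 in the double mutant. Every transgenic library was above the others, and the highest values were in Pb-ERG and not in the double mutant. Its log2 difference was 1.21 (SE 0.32, limma adjusted p = 0.0757) in Pb-ERG against WT, 0.47 (adjusted p = 0.286) in the double mutant against WT, and 0.92 (adjusted p = 0.0135) in the transgene average, which was called. The transmembrane collagens went with no genotype by the test. Col23a1 (chr11:51289920-51583918, plus strand) was at 3.66, 2.69 and 2.53 in WT, 3.17, 1.47 and 1.91 in Pb-ERG, 1.61, 1.08 and 1.49 in Trp53pc-/- and 4.06, 1.69 and 1.40 in the double mutant, and had the smallest p of the members in Trp53pc-/- against WT (-0.72, SE 0.29, limma adjusted p = 0.937). The 3 Trp53pc-/- libraries lay below the 3 of WT. Col13a1 (chr10:61838236-61979108, minus strand) held between 0.176 and 0.538 FPKM: 0.251, 0.258 and 0.245 in WT, 0.278, 0.176 and 0.211 in Pb-ERG, 0.429, 0.538 and 0.276 in Trp53pc-/- and 0.372, 0.370 and 0.357 in the double mutant. All 6 libraries with the deletion except Trp53pc-/- replicate 3 exceeded all 6 without it. Col28a1 (chr6:7997808-8192617, minus strand), a member near nerve, read 0.525, 0.276 and 0.467 in WT, 0.363, 0.456 and 0.383 in Pb-ERG, 0.265, 0.168 and 0.157 in Trp53pc-/- and 1.24, 0.420 and 0.319 in the double mutant, and was not called.

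The 8 members that did not pass the filter were Col2a1, Col9a1, Col9a3, Col19a1, Col22a1, Col24a1, Col25a1 and Col26a1, several of them cartilage or nerve collagens. None had more than 10 fragments in any library other than double mutant replicate 3, and 5 of the 8 had their highest FPKM there, Col22a1 at 0.857, Col24a1 at 0.315 and Col9a3 at 0.136 among them. Col26a1 (chr5:136741759-136883184, minus strand) was at 0.0275, 0 and 0 FPKM in WT, 0.110, 0.0144 and 0 in Pb-ERG, 0, 0.0545 and 0.0158 in Trp53pc-/- and 0.0610, 0 and 1.06 in the double mutant. The transmembrane Col25a1 (chr3:130180891-130599877, plus strand) was at 0, 0.00703 and 0.0162 in WT, 0, 0.0582 and 0.0260 in Pb-ERG, 0.0120, 0 and 0.0448 in Trp53pc-/- and 0.0246, 0.00714 and 0.110 in the double mutant. Their other libraries thus held few fragments or none. The high values come from 1 mouse and were not tested.

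**Figure D3:**
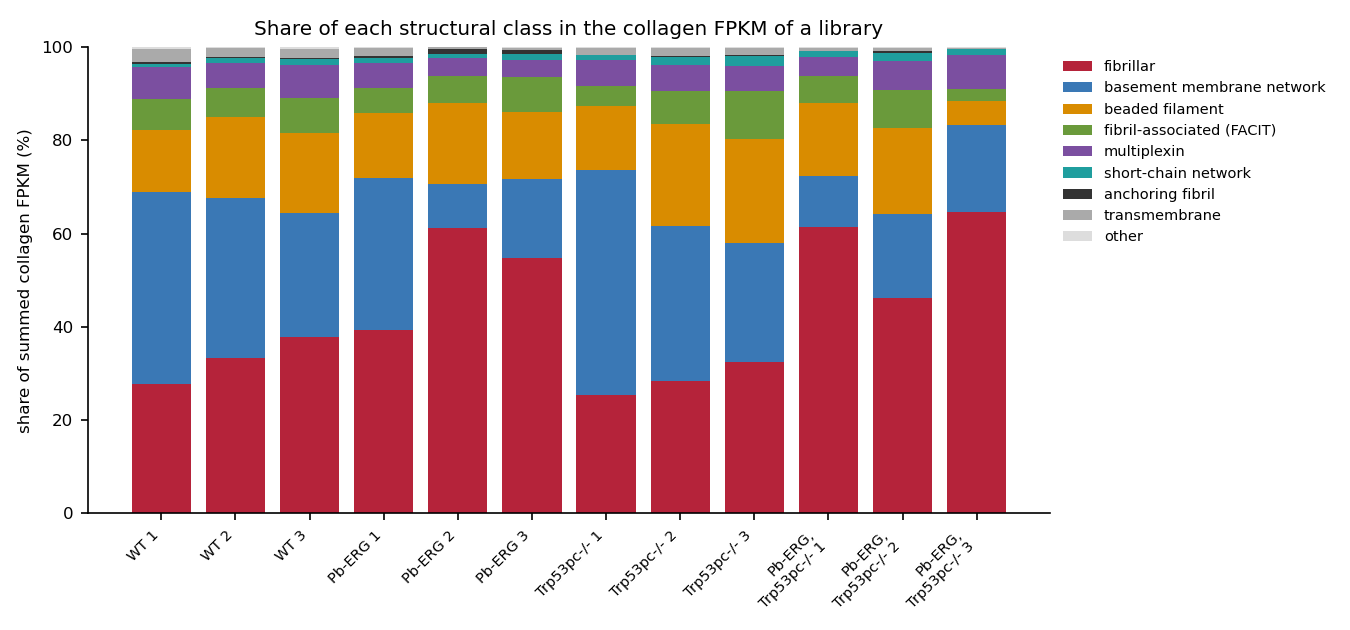
Share of each structural class in the summed collagen FPKM of each of the 12 libraries, as stacked bars from 0 to 100%. The fibrillar share runs from 25.4% to 37.8% without the transgene and from 39.4% to 64.7% with it.

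Summed over the 43 members, collagen FPKM was 143, 150 and 142 in WT, 142, 96.4 and 119 in Trp53pc-/-, 200, 474 and 340 in Pb-ERG and 741, 266 and 940 in the double mutant. The libraries of the first pair of groups lay close together, and those of the transgenic groups were higher and differed several-fold among mice. Composition differed as well. Fibrillar collagens made up 27.8%, 33.2% and 37.8% of the sum in WT, 25.4%, 28.3% and 32.5% in Trp53pc-/-, 39.4%, 61.1% and 54.7% in Pb-ERG and 61.4%, 46.1% and 64.7% in the double mutant. Basement membrane collagens took 41.1%, 34.3% and 26.7% in WT, 48.3%, 33.2% and 25.3% in Trp53pc-/-, 32.5%, 9.56% and 16.9% in Pb-ERG and 10.9%, 18.1% and 18.6% in the double mutant, and Col4a6 was their most abundant member in every WT library. Shares sum to 100%, so a class can lose share without a lower level.

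Ratios between genes of the same library do not depend on how libraries are scaled, and 9 ratios were each tested for the transgene and for the Trp53 deletion (two-sided exact permutation test of 6 against 6 libraries, 924 divisions, smallest possible p 0.00216, Benjamini-Hochberg over 18 tests). With the transgene, 7 of the 9 ratios passed and were lower, that is, Col1a1 was higher relative to the other gene. All 7 have Col1a1 as denominator, the member of highest log2 fold change in the transgene average (2.56). A rise of Col1a1 lowers each of them, so they are not 7 independent results. The ratio of Col18a1 to Col1a1 fell furthest, by 2.31 in mean log2, from 0.694 to 1.09 without the transgene to 0.0803 to 0.466 with it (exact permutation, adjusted p = 0.00779). Col4a1 to Col1a1 fell by 1.30, from 1.66 to 2.82 down to 0.436 to 1.40, and Col6a1 to Col1a1 also by 1.30, from 1.5 to 2.38 down to 0.255 to 1.31 (exact permutation, adjusted p = 0.00779 for each). Neither pair of ranges overlapped. The ratio of Col14a1 to Col1a1 fell by 1.33 (adjusted p = 0.00779, exact permutation), and by 0.76 without double mutant replicate 3, in which it was 0.0240. Col12a1 to Col1a1 fell by 1.28 (adjusted p = 0.0130, exact permutation) and Col15a1 to Col1a1 by 0.84 (adjusted p = 0.0223, exact permutation), both with overlapping ranges. The call for Col12a1 was lost without WT replicate 1 (adjusted p = 0.0501, exact permutation) or Trp53pc-/- replicate 3 (0.0520), and that for Col15a1 without WT replicate 1 (0.0501), 2 (0.0520) or 3 (0.0520); in each case the ratio still fell, by 0.79 or more.

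The 2 chains of type I collagen did not move in a fixed ratio either. Col1a2 to Col1a1 was 2.67 to 3.30 in the 6 libraries without the transgene and 0.785 to 2.66 in the 6 with it, a fall of 0.51 in mean log2 (exact permutation, adjusted p = 0.00779). The value of 0.785 belonged to double mutant replicate 3, and without it the fall was 0.24 and the next lowest was 2.13. The call was lost, with adjusted p between 0.0501 and 0.0891 and falls of 0.46 to 0.52 (exact permutation), when WT replicate 1, 2 or 3 or Trp53pc-/- replicate 3 was left out. Col3a1 to Col1a1, at 3.29 to 5.24 without the transgene and 2.87 to 3.76 with it, did not pass (exact permutation, adjusted p = 0.141, and 0.0390 without Trp53pc-/- replicate 2), and neither did Col4a2 to Col4a1, at 0.439 to 0.618 and 0.514 to 0.733 (exact permutation, adjusted p = 0.737). For the Trp53 deletion 0 of 9 ratios passed the exact permutation test, with adjusted p between 0.255 and 0.868 and 0 at an unadjusted p below 0.05, although Col3a1 to Col1a1 passed without Trp53pc-/- replicate 1 (exact permutation, adjusted p = 0.0487).

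**Figure D4:**
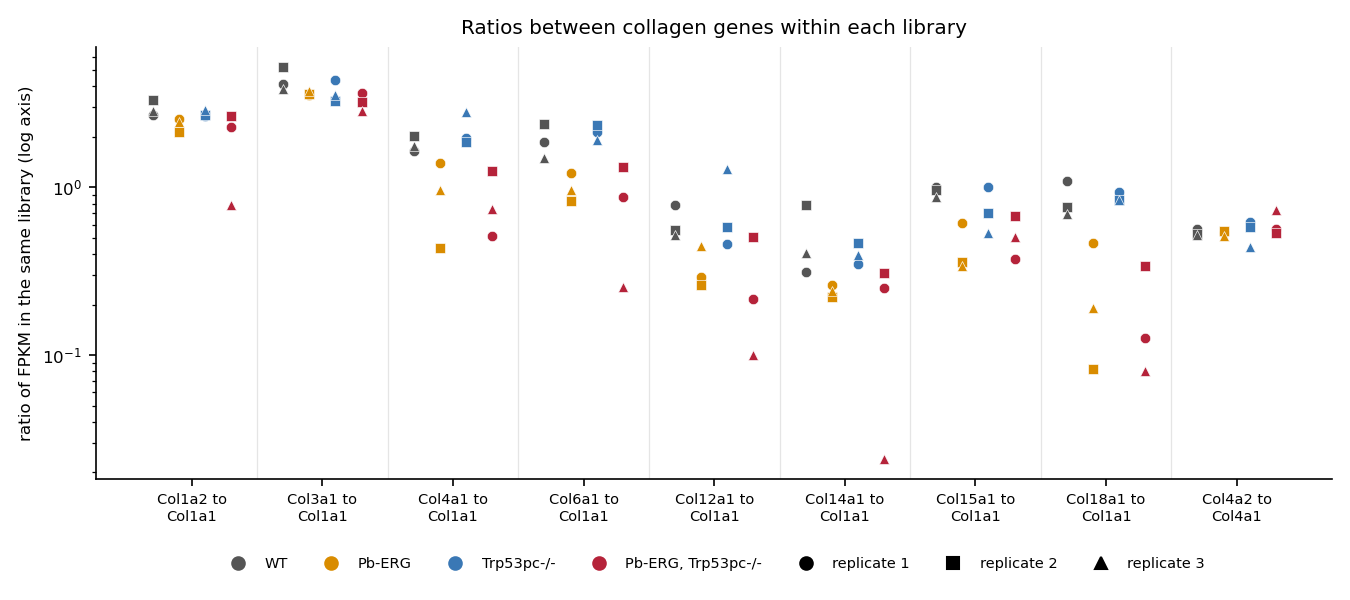
Ratios of FPKM between collagen genes within each of the 12 libraries on a log axis, coloured by genotype. For Col18a1, Col4a1 and Col6a1 to Col1a1 the 6 libraries with the transgene lie below the 6 without it, whereas Col4a2 to Col4a1 stays between 0.439 and 0.733.

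Without a model, 14 of the 35 tested members had all 6 transgenic libraries above all 6 others, where 11.8% of all tested genes did. They were Col1a1, Col1a2, Col3a1, Col5a1, Col5a2 and Col27a1 among the fibrillar collagens, Col4a1, Col4a2, Col6a1, Col6a2, Col7a1, Col8a1, Col15a1 and Col16a1. After median-of-ratios scaling there were 13 of 35, beside 5.73% of all genes. No member had all 6 transgenic libraries below the others.

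The genes that make, cross-link and bind collagen were examined through 4 lists. Of 32 tested processing enzymes and chaperones, 17 were called higher in the double mutant against WT and 19 in the transgene average, and 0 lower in either (limma, Benjamini-Hochberg), where 22.0% and 29.3% of all tested genes were called higher, and the list medians were 1.20 and 1.07 against 0.35 and 0.26. After median-of-ratios scaling, with 8.08% and 12.5% of all genes called higher, 9 and 14 of the 32 were called higher and 1 lower in each. Without double mutant replicate 3, with 15.1% and 29.2%, 12 and 20 were called higher. Fkbp14, a prolyl isomerase of the endoplasmic reticulum that acts on collagen, stood at 2.15, 2.26 and 1.98 FPKM in WT, 3.67, 5.90 and 4.64 in Pb-ERG, 1.83, 2.06 and 1.43 in Trp53pc-/- and 7.91, 7.21 and 15.9 in the double mutant. The transgenic libraries did not overlap the rest, and its fold change was 1.78 in the double mutant against WT (SE 0.26, limma adjusted p = 0.00373). Sparc, which binds collagens outside the cell, read 71.4, 101 and 97 in WT, 120, 306 and 251 in Pb-ERG, 73.3, 61.6 and 69.2 in Trp53pc-/- and 507, 193 and 691 in the double mutant, with 2.19 (SE 0.45, limma adjusted p = 0.0110). Its order of libraries followed that of Col3a1 within Pb-ERG and within the double mutant.

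Collagen receptors gave 4 of 9 called higher in the double mutant against WT, 5 of 9 in the transgene average and 1 of 9 in Pb-ERG against WT, beside 22.0%, 29.3% and 2.0% of all genes. There were 3 and 5 of 9 in the former pair after median-of-ratios scaling, beside 8.08% and 12.5% of all genes. Leaving out double mutant replicate 3 gave 5 and 6 of 9, beside 15.1% and 29.2%. Lair1, an inhibitory collagen receptor of leukocytes, was at 0.242 to 0.626 FPKM without the transgene, 0.532 to 1.82 in Pb-ERG and 2.95 to 3.72 in the double mutant (1.71, limma adjusted p = 0.00187). Itgb1, the shared beta chain of the collagen-binding integrins, was at 56.8 to 93.7 without the transgene, 93.6 to 128 in Pb-ERG and 148 to 164 in the double mutant (0.80, limma adjusted p = 0.0142). Of the 15 laminins and other basement membrane partners tested, 9 were called higher in the double mutant against WT (22.0% of all genes), and 10 higher and 1 lower in the transgene average (29.3% higher). After median-of-ratios scaling these were 4 higher, and 5 higher and 1 lower (8.08% and 12.5% higher). Without double mutant replicate 3 they were 7 higher, and 12 higher and 1 lower (15.1% and 29.2% higher). In the double mutant against WT, Hspg2, the perlecan core protein, rose by 1.27 (limma adjusted p = 0.00401) and Agrn by 1.55 (adjusted p = 0.0132). Lamb2 rose by 1.36 (limma adjusted p = 0.00326) in the transgene average. The gene called lower in the transgene average on all 12 libraries was Lama3, a laminin chain of epithelial hemidesmosomes. It stood at 3.47 to 14.9 FPKM without the transgene and 0.954 to 4.26 with it (-1.40, limma adjusted p = 0.0156). Lama3 was named after its values were seen. Of 15 fibril-associated proteoglycans and glycoproteins 6 were called higher and 1 lower in the double mutant against WT (Fmod, a fibril proteoglycan, at -1.70, limma adjusted p = 0.0394, named after its values were seen and not called without double mutant replicate 3), 8 higher in the transgene average and 2 higher in Pb-ERG against WT. The shares of all genes called higher in these 3 comparisons were 22.0%, 29.3% and 2.0%. Median-of-ratios scaling gave 5 higher in each main comparison, beside 8.08% and 12.5% of all genes. It also gave 1 lower, in the double mutant against WT. With double mutant replicate 3 left out, 9 and 12 were called higher and 0 lower, beside 15.1% and 29.2% of all genes higher. Bgn, a small proteoglycan on fibrils, kept the transgenic groups apart from the rest: 45.7, 52.3 and 55.3 FPKM in WT, 235, 213 and 210 in Pb-ERG, 39.9, 56.4 and 45.7 in Trp53pc-/- and 366, 170 and 270 in the double mutant. Unlike the fibrillar collagens, its level in Pb-ERG replicate 1 was as high as in the other 2 mice. Thbs1, a matricellular protein, had the larger fold change, 3.22 (limma adjusted p = 0.00181) in the double mutant against WT.

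**Figure D5:**
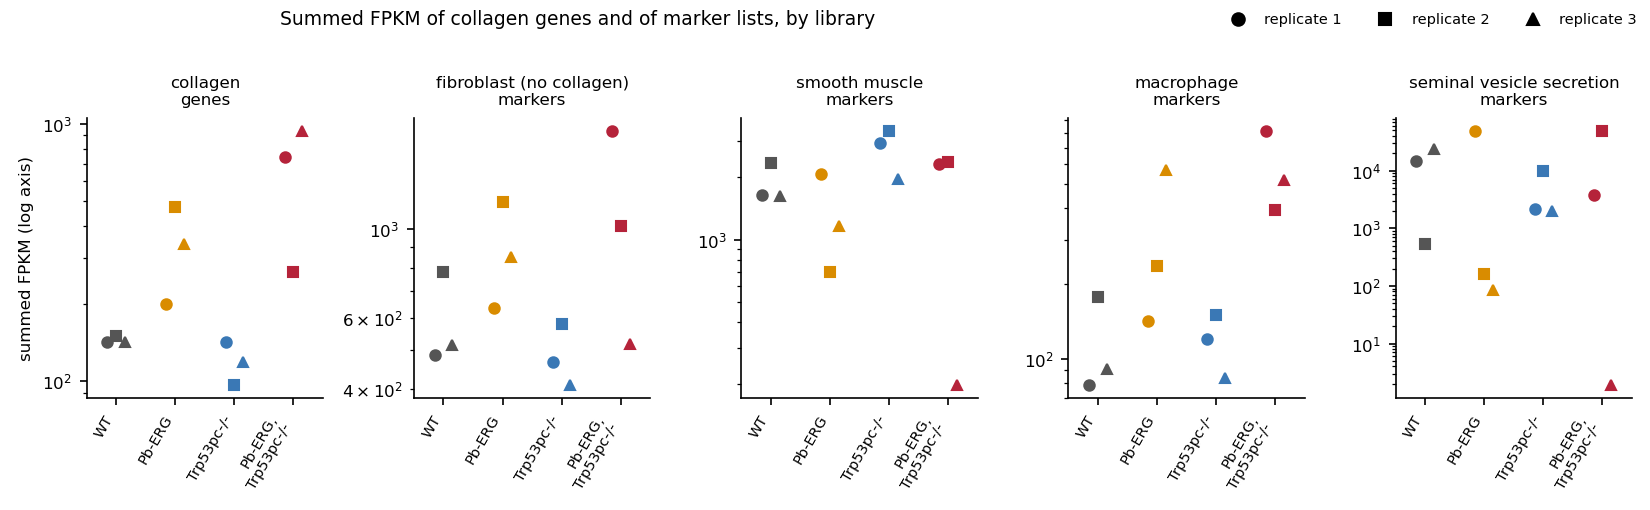
Summed FPKM on log axes of the 43 collagen genes and of 4 marker lists in each library, with replicates 1 to 3 as circle, square and triangle. Collagen sums of the 6 transgenic libraries, from 200 to 940, lie above the others, from 96.4 to 150, and double mutant replicate 3 has the lowest smooth muscle and seminal vesicle sums of all 12.

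Markers of stromal and immune cells moved with some of these results. The 12 fibroblast markers, chosen without collagens, summed to 487 to 782 FPKM in WT, 636 to 1167 in Pb-ERG, 408 to 580 in Trp53pc-/- and 517 to 1754 in the double mutant, and 6 of 12 were called higher in the double mutant against WT, where 22.0% of all genes were. The 10 endothelial markers summed to 28.7 to 41.9, 43.1 to 55.1, 24.4 to 35.6 and 46.8 to 93.7 (7 of 10 called higher), and the 10 macrophage markers to 78.4 to 177, 141 to 571, 83.7 to 150 and 394 to 819 (9 of 10 called higher). After median-of-ratios scaling these calls numbered 4 of 12, 0 of 10 and 6 of 10, beside 8.08% of all genes. Without double mutant replicate 3 they numbered 7 of 12, 3 of 10 and 10 of 10, beside 15.1% of all genes. For smooth muscle, 0 of 10 were called by limma in the double mutant against WT and 0 were past an unadjusted p of 0.05, with sums of 1620 to 2354 in WT, 695 to 2079 in Pb-ERG, 1961 to 3370 in Trp53pc-/- and 198 to 2375 in the double mutant. Seminal vesicle secretion genes, from tissue beside the prostate, summed to 49570 in Pb-ERG replicate 1 and 48154 in double mutant replicate 2, the libraries with the lowest collagen sums of their groups, and to 83.7 to 23620 in the others except double mutant replicate 3, at 1.87. With the same 22.0% as background, the other lists gave 2 higher and 1 lower of 10 for luminal and 1 higher of 7 for basal epithelium, 3 higher of 9 for lymphocytes, 1 higher of 4 for plasma cells, 2 higher of 6 for Schwann cells, 8 higher of 8 for cycling cells, and 0 of 8 and 0 of 7 for skeletal muscle and adipocytes in the same comparison. The part of these cells and of this tissue in the collagen levels was not tested. Against Pdgfra, a receptor of fibroblasts, and with no test because the ratios were chosen after the values were seen, Col1a1 stood at 0.582 to 1.13 in the 6 libraries without the transgene and at 1.42 to 3.49 in the 6 with it, without overlap. Against Pdgfrb, another receptor of stromal cells, the ranges overlapped, at 2.89 to 5.59 without the transgene and 4.68 to 14.7 with it for Col1a1, and at 9.86 to 21.6 and 16.7 to 42.3 for Col3a1.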

How the data were processed

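RNA from whole prostates of 12 mice (4 genotypes, 3 mice each) was sequenced as paired reads after TruSeq library preparation, and the authors aligned the reads to GRCm38/mm10 with STAR (2.5.2b in the submitters' processing notes, another version in the methods of the study), counted them with RSeQC and tested counts with DESeq2 at a false discovery rate of 0.001. The deposited values are FPKM per gene, made by the authors from fragment counts, exon length and the total of mapped fragments. Multiplying FPKM by length and total gave whole fragments for 100% of values (within 0.001). Whether counting used strand is not given in the sources used here.

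Genes with at least 0.42 CPM (10 fragments at the median total) in 3 libraries and 15 fragments in all were tested (17623) with limma 3.58.1 in R 4.3.3, using a trended variance on log2(FPKM + 1) of all 12 libraries, 8 residual degrees of freedom and Benjamini-Hochberg adjustment over all genes. A count model was used only as an alternative, as limma voom. The 1 row left out by the rule and mice of other genotypes were not analysed here. Ratios were tested by exact permutation (SciPy 1.17.1). Values of every library are given for the 3 members of highest mean FPKM in each structural class and the 5 of smallest p in each comparison; from each pathway list the 2 genes of smallest p in both main comparisons are named. Members and lists were chosen with earlier results of these data known. The fits were tested on simulated data. Alternatives were the pseudocount, filters, scalings, thresholds, tools, groups fitted, the replicate block and each library left out; leaving out Trp53pc-/- replicate 3 together with double mutant replicate 3, the ratios to fibroblast genes and of Col4a6 to Col4a5, counts of non-overlapping members, and list calls after median-of-ratios scaling or without that library were added after seeing the data. At 10 fragments counting error alone is large, so levels below about 0.1 FPKM carry little information; 30 of the 43 members had at least 10 fragments in every library. Nothing states that the mice of a group were littermates of each other, and p-values measure the spread between these mice.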

Additional observations from a re-analysis of the deposited data

How the results depend on the processing

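No direction of a called value was reversed under any alternative run. At the study's threshold of 0.001 the counts of members called in the double mutant against WT and in the transgene average were both 0. Of the 17623 genes, 36 and 186 were called higher at that threshold, and 0 and 3 lower. Counts of members called over the 12 omissions of 1 library ran from 0 to 11 in Pb-ERG against WT, 0 to 0 in Trp53pc-/- against WT and in the non-additive effect, 8 to 20 in the double mutant against WT, 0 to 3 in the double mutant against Pb-ERG and 17 to 26 in the transgene average. The share of all genes called higher moved too. It was 17.8% at the 11, 9.39% and 6.36% at the 8, and 27.3% and 25.8% at the 20. At the 3 it was 0.742%, at the 17 it was 18.9% to 23.6%, and at the 26 it was 37.9%. With a pseudocount of 0.1 Pb-ERG against WT called 2 members, Col27a1 and Col7a1, beside 3.48% of all genes called higher. The counts in the double mutant against WT and the transgene average follow, with the share of all genes called higher. They were 20 (23.9%) and 23 (31.4%) with that pseudocount, and 17 (26.4%) and 21 (32.6%) with at least 10 fragments in every library. With no filter they were 14 (10.8%) and 18 (16.0%). With a log2 fold of at least 1 they were 16 and 15, beside 1887 and 1419 of the 17623 genes. With voom they were 19 (21.0%) and 23 (27.4%), and with TMM 13 (8.27%) and 16 (12.7%). A total that leaves out genes over 1% of a library gave 13 (10.3%) and 16 (14.6%). Without Trp53pc-/- replicate 3 and double mutant replicate 3 together they were 15 (17.0%) and 24 (26.7%), 1 of the 24, Col6a4, being lower. Fitting the compared groups alone gave 14 in the double mutant against WT, beside 16.4% of all genes called higher.

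Over single omissions the change in mean log2 ratio with the transgene ran from -0.59 to -0.24 for Col1a2 to Col1a1, -0.29 to -0.16 for Col3a1 to Col1a1, -1.46 to -1.0 for Col12a1 to Col1a1 and -0.97 to -0.76 for Col15a1 to Col1a1, and with the Trp53 deletion from -0.27 to -0.12 for Col3a1 to Col1a1. The cause of the lost calls was not tested.

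Replicate numbers were not taken to pair the mice, since the labels give no shared litter or batch and not every pair correlated: of 18 same-numbered pairs across groups 8 correlated above 0.1 in their deviations (r from -0.237 to 0.370), against -0.323 to 0.267 for other pairs, and 7 of 12 libraries correlated best with their own number, a hint of pairing also seen between WT and Trp53pc-/-, where all 3 pairs exceeded 0.1 and the block called 0 members. With the replicate block 19 members were called in the double mutant against WT (18 higher, and Col4a6 lower at -1.53, limma adjusted p = 0.0271), 21 in the transgene average and 0 in the other comparisons. Of all genes, 17.5% in the double mutant against WT and 25.6% in the transgene average were called higher with the block. Genes near 0.1 FPKM are limited by depth.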
